A study of Mus musculus with 6 samples.

Results

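The transcription factors that place and shape the limb, the face and the axial skeleton were followed through 6 mouse osteosarcomas. The 10 genes were Pitx1, Tbx4, Tbx5, Tbx15, Shox2, Prrx1, Pax1, Pax9, Msx2 and Meis2, chosen by symbol among the 39179 genes counted, and all 10 were found. Each tumor was a primary osteosarcoma of a mouse heterozygous for the Nf2 allele Nf2Δ2, on a C57BL/6 x 129/Sv x FVB background. The 3 tumors No244, No316 and No368 were labelled CD44+/+ (Cd44+/+ below), and the 3 tumors No203, No279 and No364 were labelled CD44-/- (Cd44-/- below), so Nf2Δ2/+ was shared by both genotypes. Poly(A) RNA was sequenced once per tumor, to ask how loss of the adhesion receptor Cd44 changes the transcriptome. The labels name osteosarcoma as the tissue but mention cell lines in the RNA extraction text, and the bone in which a tumor arose, the age and the sex are not in the labels.

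Total counts lay between 18076388 and 26954142 per tumor. Levels are normalized counts (CPM), scaled to an effective library of 1000000 reads, and 3 counts, taken as the lowest detectable level, were 0.0990 to 0.252 CPM. No316 and No368 stood apart from all other pairs, because 87.2% of their genes differed by no more than binomial sampling noise, against 15.75 to 23.98% in the 14 other pairs. In every mean ± SD the pair enters as 1 value, the mean of both libraries (n = 2 for Cd44+/+ and n = 3 for Cd44-/-). Other libraries also differed from the rest: mitochondrial genes took 55.2% of the counts of No244 and 5.94 to 12.5% elsewhere, the 10 skeletal muscle markers summed to 21450 CPM in No244 and 15.4 to 719.2 CPM elsewhere, and the 12 hepatocyte markers summed to 122600 CPM in No364 and 46.2 to 157.7 CPM elsewhere. All 4 Y-linked genes examined had reads in No279 and No364, and at most 1 of the 4 in any other tumor. Cd44 itself ranged from 137.3 to 243.6 CPM in Cd44+/+ tumors and from 15.7 to 61.8 CPM in Cd44-/- tumors.

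In the embryo, a limb bud is set up at a fixed level of the body. Tbx5 starts the forelimb, Tbx4 starts the hindlimb, and Pitx1 gives the hindlimb its identity. Inside the bud, Prrx1 marks the early mesenchyme, Meis2 marks its proximal part, Shox2 is needed for the proximal long bones, and Tbx15 for the scapula and other elements. Pax1 and Pax9 act in the sclerotome, which forms the vertebrae, and Msx2 acts in the skull vault, the teeth and the limb margin. Several of these genes stay on in connective tissue and bone cells of the region where they first acted.

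The 10 genes fell into 3 kinds in these tumors. Prrx1, Meis2 and Pax9 were detected in all 6 tumors. Tbx15 and Shox2 were well expressed in all 3 Cd44+/+ tumors and in No203. They were far lower in No279, with 23 and 9 reads, and below the level of 3 counts in No364. Pitx1, Tbx4, Tbx5, Pax1 and Msx2 gave at most 25 reads each over all 6 tumors together. The low-count filter was passed by 5 of the 10 genes, Prrx1, Tbx15, Shox2, Pax9 and Meis2. Per kilobase of exon, the mean level over the 6 tumors was 16.5 CPM per kb for Prrx1, 6.03 for Tbx15, 5.34 for Shox2, 0.641 for Pax9 and 0.551 for Meis2, and no more than 0.0605 for any of the other 5.

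**Figure D1:**
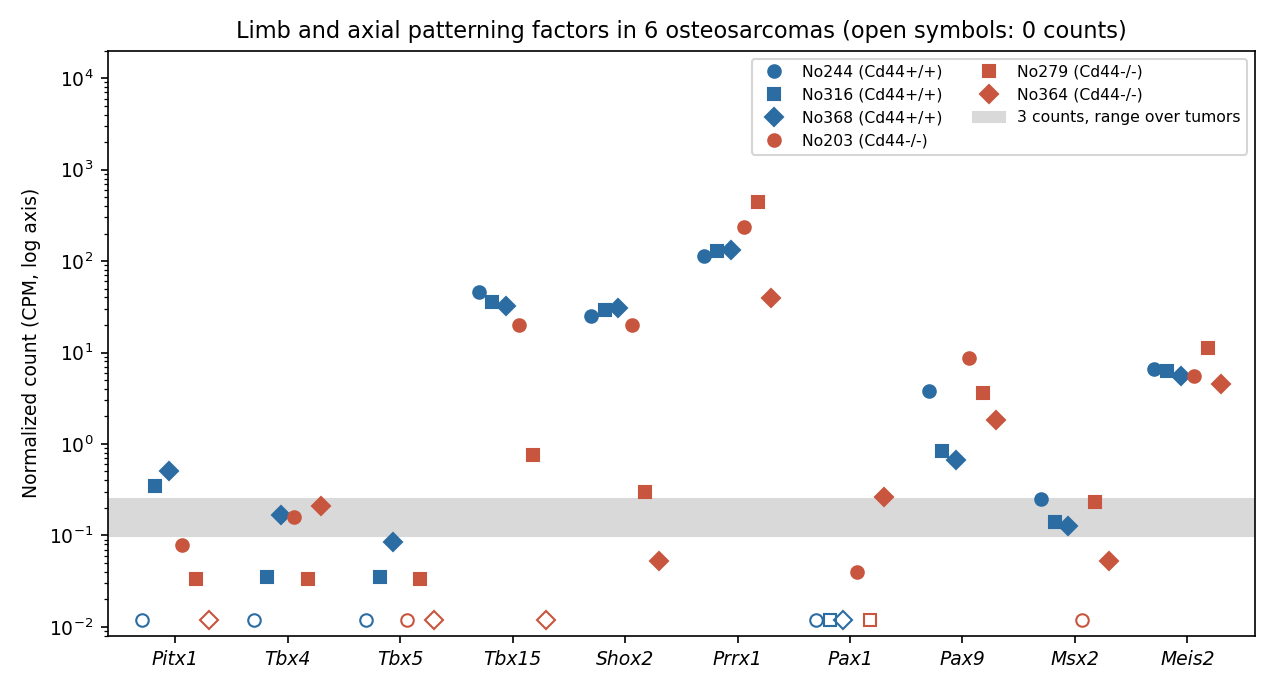
Normalized counts (CPM, log axis) of the 10 patterning factors in each of the 6 tumors, blue for Cd44+/+ and red for Cd44-/-, with open symbols at the bottom for 0 counts and a grey band for the level of 3 counts (0.0990 to 0.252 CPM). Prrx1 is the highest gene in every tumor, and Tbx15 and Shox2 separate No279 and No364 from the other 4 tumors.

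The promoters of Shox2 and Prrx1 are shown because these 2 genes differ most plainly in No279, where Shox2 was almost without reads and Prrx1 was at its highest. Both stretches come from the RefSeq start-site windows on GRCm38.p6, which cover 250 bases before and 50 bases after each start, and only the bases that lie in no annotated exon are printed. Shox2 is shown at chr3:66981772-66982021 (minus strand) and Prrx1 at chr1:163313711-163313900 (minus strand), both 5′ to 3′ in the direction of transcription. The capitals in Shox2 mark CGCAGG, the reverse complement of the element CCTGCG that has been tied to the Cd44 intracellular domain. Those in Prrx1 mark TAATTA, a core that homeodomain proteins bind.
Shox2: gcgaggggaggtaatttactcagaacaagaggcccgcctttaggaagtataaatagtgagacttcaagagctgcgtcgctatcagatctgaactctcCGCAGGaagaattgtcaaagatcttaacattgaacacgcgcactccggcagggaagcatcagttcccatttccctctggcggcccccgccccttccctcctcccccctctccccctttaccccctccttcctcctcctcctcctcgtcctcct
Prrx1: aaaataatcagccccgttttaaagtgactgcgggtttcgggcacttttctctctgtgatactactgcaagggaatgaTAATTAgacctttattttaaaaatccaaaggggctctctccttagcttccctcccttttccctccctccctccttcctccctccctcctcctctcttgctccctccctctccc

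Windows of this kind were given for 7 of the 10 genes, with none for Pitx1, Tbx5 and Tbx15. Motifs were searched on both strands over the whole 300 bases. CCTGCG was found in 17.3% of all 32851 promoters and, among the 7, in Shox2 only, with its first base at position -153 from the start. The homeodomain core TAATTA was in 5.29% of all promoters and was found in Prrx1 (position -173) and in Msx2 (position -187). TGACAG, a core of Meis sites, was in 19.2% of all promoters and was found in Pax9 alone of the 7. Neither the AP-1 element TGACTCA (5.20% of all promoters) nor the T-box half-site GGTGTGA (3.98% of all promoters) was found in any of the 7. These are matches of letters and no sign of binding.

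Tbx15, a T-box factor of skeletal and connective tissue (ENSMUSG00000027868, GRCm38 chr3:99240381-99354259, plus strand), stood at 46.4 CPM in No244, 35.8 in No316 and 32.5 in No368. Its level was 20.2 CPM in No203 and 0.759 in No279, from 510 and 23 reads, and no read was found in No364. All 3 Cd44-/- tumors were below all 3 Cd44+/+ tumors, but No203 was far closer to the Cd44+/+ tumors than to the other Cd44-/- tumors. No203 was 26.6-fold above No279 (95% counting interval 17.6 to 42.4) and at least 128.8-fold above No364, taking 3 counts as the floor in No364. No203 was 0.565 times the level of No316 (0.507 to 0.629). By counting error alone the order was No244, then No316 and No368 with overlapping intervals, then No203, No279 and No364, each apart from the next.

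Shox2, a homeobox factor of the proximal limb (ENSMUSG00000027833, chr3:66971727-66981771, minus strand), was at 25.3 CPM in No244, 29.5 in No316 and 30.9 in No368. In the Cd44-/- tumors it was at 19.9 CPM in No203, 0.297 in No279 and 0.0523 in No364, from 503, 9 and 1 reads. The split was the same as for Tbx15. Its exons share 153 bases (4.6%) with Rsrc1 on the opposite strand, and without a stated strand setting reads there cannot be told apart. No203 was 67.1-fold above No279 (35.1 to 147.7), and the ratio of No203 to No364 was 381.1 with an interval of 68.1 to 15080, as it rests on 1 read. Neighbours in the order of levels whose counting intervals overlapped were No368 with No316, No316 with No244, and No279 with No364. The groups overlapped once levels were scaled by library size alone, which put No244 at 14.3 and No203 at 22.2, whereas Tbx15 in No203 (22.5 on the same scale) stayed below No244 (26.2).

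Prrx1, a paired-related homeobox factor of limb and craniofacial mesenchyme (ENSMUSG00000026586, chr1:163245119-163313710, minus strand), was at 113.5 CPM in No244, 128.5 in No316 and 131.9 in No368. In the Cd44-/- tumors it was at 234.5 CPM (No203), 447.8 CPM (No279) and 39.3 CPM (No364). The Cd44-/- tumors therefore held both the 2 highest and the lowest level. No279 exceeded No364 11.4-fold (10.6 to 12.3) and No203 1.91-fold (1.85 to 1.97). Of neighbours in the order, only No368 and No316 had overlapping counting intervals.

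**Figure D2:**
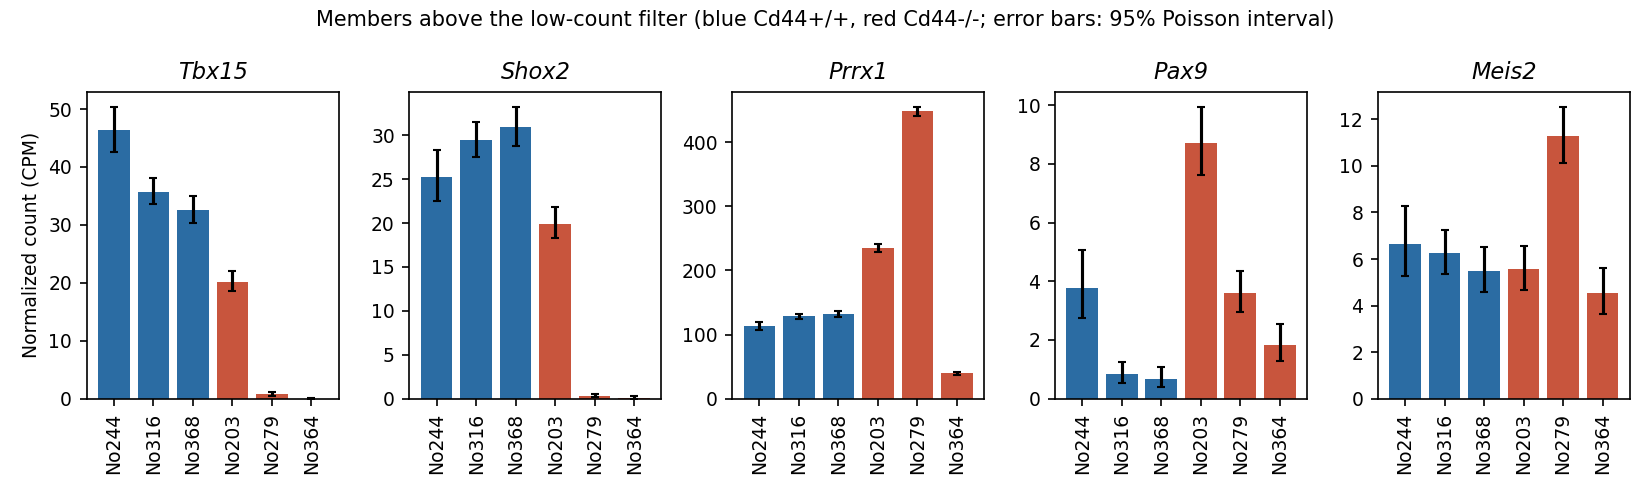
Normalized counts (CPM, linear axes from 0) of the 5 genes above the low-count filter in each tumor, blue for Cd44+/+ and red for Cd44-/-, with 95% Poisson intervals that cover counting error only. Tbx15 and Shox2 drop to 0.759 CPM or less in No279 and No364, while Prrx1 and Meis2 peak in No279 and Pax9 peaks in No203.

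Pax9, a paired-box factor of the sclerotome, face and teeth (ENSMUSG00000001497, chr12:56691767-56712822, plus strand), was low in all tumors. Among Cd44+/+ tumors it was at 3.78 CPM in No244, 0.834 in No316 and 0.672 in No368. Among Cd44-/- tumors No203 had 8.72 CPM, No279 had 3.60 and No364 had 1.83. The genotypes overlapped, with No203 the highest tumor and No316 and No368 the lowest. No203 was 10.46-fold above No316 (6.85 to 16.7) and 2.31-fold above No244 (1.67 to 3.25). Its exons share 189 bases with Slc25a21 on the opposite strand, 3.7% of the exon length, with the same limit.

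Meis2, a TALE homeodomain factor of the proximal limb and face (ENSMUSG00000027210, chr2:115863064-116065839, minus strand), was the most even of the 5. Cd44+/+ levels were 6.64 CPM (No244), 6.26 CPM (No316) and 5.50 CPM (No368). Cd44-/- levels were 5.55 CPM (No203), 11.3 CPM (No279) and 4.55 CPM (No364). Apart from No279, every neighbouring pair in the order had overlapping counting intervals. The range over the 6 tumors was 1.29 on the log2 scale for Meis2, against 3.51 for Prrx1, 3.54 for Pax9, 7.81 for Shox2 and 9.07 for Tbx15. The median range over all genes tested was 2.07.

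The 3 genes that define fore- and hindlimb were at the limit of detection. Pitx1 (chr13:55825051-55836192) had 10 reads in No316, 12 in No368, 2 in No203, 1 in No279 and none in No244 or No364. Its levels in No316 and No368, 0.348 and 0.504 CPM, were above the level of 3 counts, and these libraries count as 1 sample. Exons of Pitx1 share 165 bases (6.2%) with an opposite-strand gene model, Gm47071, and 108 bases (4.1%) with a same-strand model, Gm28760. Neither model is among the genes counted. Tbx4 (chr11:85886422-85916097) had 0 to 4 reads in each tumor and 14 in all, and Tbx5 (chr5:119832668-119885219) had 0 to 2 reads in each tumor and 4 in all. For all 3 genes, neighbouring tumors in the order of levels had overlapping counting intervals.

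The axial factor Pax1 (chr2:147361925-147393295), which acts with Pax9 in the sclerotome, had 5 reads in No364, 1 in No203 and 0 in the other 4 tumors. Msx2 (chr13:53466884-53473074), a homeobox factor of the skull vault, had 18 reads in all and at most 0.252 CPM in any tumor. For both genes all neighbouring tumors had overlapping counting intervals.

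No genotype difference of the 5 tested genes passed the test. Tbx15 was at 40.3 ± 8.65 CPM in Cd44+/+ tumors (SD, n = 2) and 6.99 ± 11.5 CPM in Cd44-/- tumors (SD, n = 3). Its log2 fold change was -2.45 with a standard error of 1.71 (adjusted p = 0.593, edgeR quasi-likelihood test). Shox2 was at 27.8 ± 3.49 and 6.77 ± 11.4 CPM, with a log2 fold change of -2.08 ± 1.69 (SE; adjusted p = 0.646, edgeR). In both genes the SD of the Cd44-/- tumors exceeded their mean.

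Prrx1 was at 121.9 ± 11.8 CPM in Cd44+/+ and 240.5 ± 204.3 CPM in Cd44-/- tumors, with a log2 fold change of 0.95 ± 0.79 (SE; adjusted p = 0.657, edgeR). Pax9 was at 2.27 ± 2.14 and 4.72 ± 3.58 CPM, with a log2 fold change of 1.44 ± 0.94 (SE; adjusted p = 0.57, edgeR). Meis2 was at 6.26 ± 0.538 and 7.13 ± 3.64 CPM, with a log2 fold change of 0.22 ± 0.52 (SE; adjusted p = 0.89, edgeR). The median log2 fold change over all genes tested was 0.107.

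None of the 5 genes was called at an adjusted p under 0.05 by edgeR, which called 0% of the 16839 genes tested. None reached an unadjusted p under 0.05 either, which 10.7% of all genes did. This fit takes No316 and No368 as 2 libraries. With their counts summed, 761 of 17844 genes reached it, again with none of the 5. The Wald test of DESeq2 called 2.33% of its genes and none of the 10. This test also takes No316 and No368 as 2 libraries, and it was not run with their counts summed. Its adjusted p was 0.53 for Tbx15, 0.691 for Prrx1, 0.526 for Pax9 and 0.924 for Meis2, and it gave none for Shox2. In 2 of the 5 tested genes, Tbx15 and Shox2, all Cd44-/- tumors lay on one side of all Cd44+/+ tumors, as did 19.1% of all genes tested, and in both the Cd44-/- tumors were below, as in 9.57% of all genes tested.

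**Figure D3:**
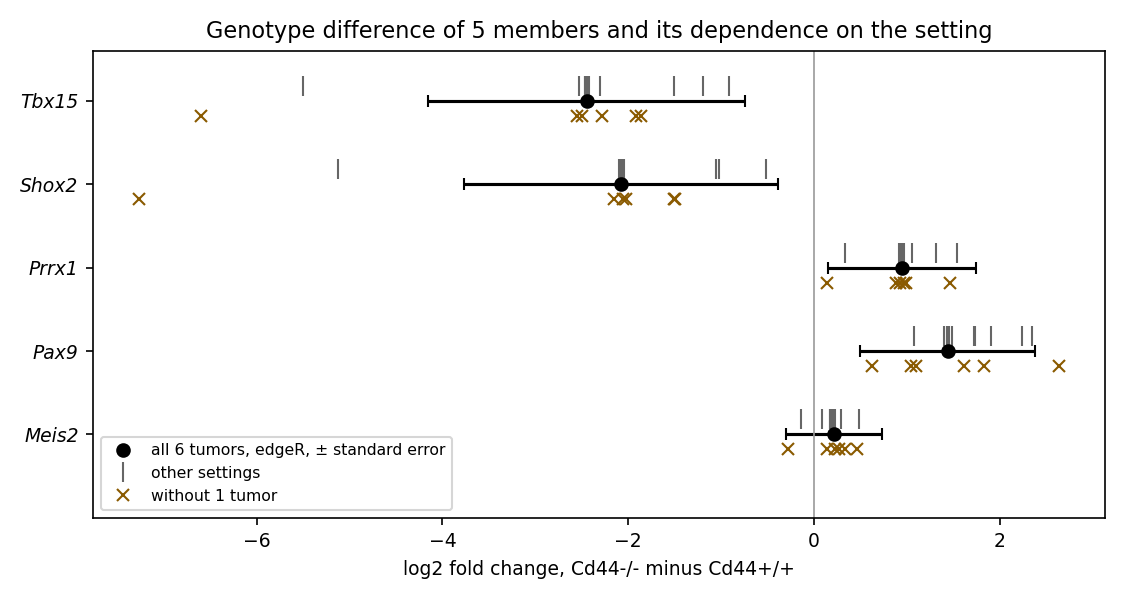
Log2 fold change (Cd44-/- minus Cd44+/+) of the 5 tested genes, with the edgeR estimate on all 6 tumors and its standard error as black points, other settings as grey ticks, and fits without 1 tumor as brown crosses. Tbx15 and Shox2 lie below 0 in every fit but range from -0.91 to -6.60 and from -0.52 to -7.27, and Meis2 lies on both sides of 0.

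The size of the genotype difference in Tbx15 and Shox2 rested on which Cd44-/- tumors were included. Without No203, the log2 fold change was -6.60 for Tbx15 (adjusted p = 0.2) and -7.27 for Shox2 (adjusted p = 0.116, edgeR). With No203 as the sole Cd44-/- tumor, which leaves the 4 tumors with reads of at most 1 Y-linked gene, it was -0.91 for Tbx15 and -0.52 for Shox2 (adjusted p = 0.59 and 0.684). In that fit the lone Cd44-/- tumor is assumed to vary like the others. Low levels of Tbx15 and Shox2, reads of all 4 Y-linked genes and 2 of the 3 Cd44-/- labels thus fell on the same tumors and cannot be told apart.

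Some osteoblast markers, named after their values were seen, were also low in No279 and No364. Sp7, a transcription factor required for osteoblasts, was at 192.0 to 333.2 CPM in the other 4 tumors, 3.96 CPM in No279 and 0.314 CPM in No364. The mineral-binding protein Ibsp was at 640.1 to 4820 CPM in the other 4 tumors and at 3.27 and 2.25 CPM in these 2. Other markers were not low, or less so, in No279. Its Phex, at 15.95 CPM, was above the 7.96 and 7.89 CPM of No316 and No368, and its Col1a1, at 11990 CPM, was above the 8482 CPM of No244. Its Runx2, at 68.3 CPM, was below the 95.03 to 173.2 CPM of the other 4 tumors. In No364 these 3 were the lowest of the 6 tumors. Over the whole list of 10 osteoblast markers, the mean log2 CPM was 9.66 to 10.1 in the other 4 tumors, 5.50 in No279 and 3.96 in No364, and no marker was at 0 in any tumor. In bulk RNA, fewer cells of a type and less RNA per cell cannot be told apart. With this marker score as a covariate, the log2 fold change was -1.20 for Tbx15 and -1.02 for Shox2 (adjusted p = 0.992 for each, edgeR). In this fit 0.992 was the smallest adjusted p of any gene, so it does not single out these 2 genes. Their standard errors were 1.01 and 0.445, against 1.71 and 1.69 by genotype alone. The unadjusted p was 0.287 and 0.0659, against 0.197 and 0.26 by genotype alone (edgeR). With the hepatocyte marker score as a covariate the log2 fold change was -1.50 for Tbx15 and -1.05 for Shox2 (adjusted p = 0.758 and 0.842, edgeR). The part of these markers in the levels of Tbx15 and Shox2 was not tested further.

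Reads of 2 genes from the same library do not depend on the scaling between libraries. For every 1000 reads of Prrx1 there were 408.6 reads of Tbx15 in No244, 278.4 in No316 and 246.6 in No368. The Cd44-/- tumors had 86.2 (No203), 1.70 (No279) and 0 (No364). For Shox2 the same ratio was 222.8, 229.7 and 234.5 in the Cd44+/+ tumors, 85.1 in No203, 0.664 in No279 and 1.33 in No364. No203 thus lay below the Cd44+/+ tumors by this measure in both genes, and No279 and No364 lay further below. Against Sp7 the picture was different. For every 1000 reads of Sp7 there were 131.6 to 155.5 reads of Shox2 in the Cd44+/+ tumors, 59.9 in No203, 75 in No279 and 166.7 in No364. Those of Tbx15 were 163.5 to 241.4 in the Cd44+/+ tumors, 60.7 in No203 and 191.7 in No279, with none in No364. The denominator was only 120 reads of Sp7 in No279 and 6 in No364. Against Runx2, another osteoblast marker, both genes were again far lower in No279 and No364. Per 1000 reads of Runx2, Shox2 had 241.1 to 266.1 reads in the Cd44+/+ tumors, 115.1 in No203, 4.35 in No279 and 9.09 in No364. Tbx15 had 253.5 to 488.1 in the Cd44+/+ tumors, 116.7 in No203, 11.1 in No279 and 0 in No364. Here the denominator was 2068 reads in No279 and 110 in No364.

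**Figure D4:**
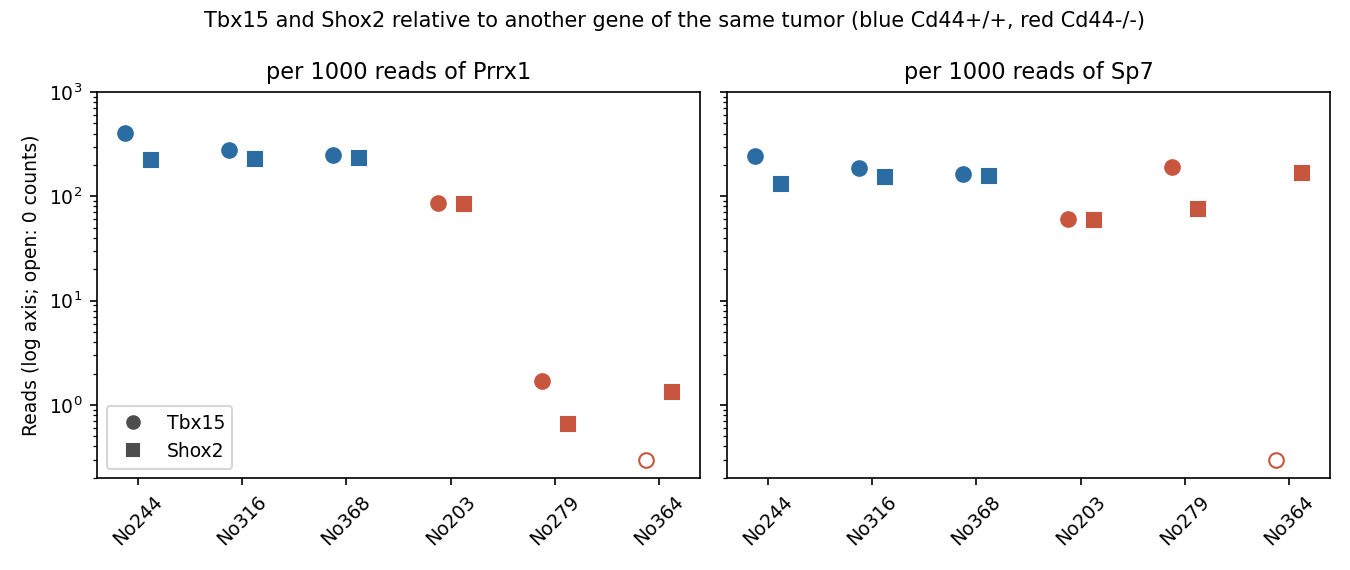
Reads of Tbx15 (circles) and Shox2 (squares) per 1000 reads of Prrx1 (left) and per 1000 reads of Sp7 (right) in each tumor, log axis, blue for Cd44+/+ and red for Cd44-/-, with an open symbol for 0 reads. Against Prrx1 both genes are at 1.70 or less in No279 and No364, and against Sp7 the values of No279 lie within or near the range of the other tumors.

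Prrx1 was also set against Runx2, an early osteoblast factor, and Col1a1, the main bone collagen. For every 1000 reads of Runx2 there were 1028 to 1195 reads of Prrx1 in the Cd44+/+ tumors, 1354 in No203, 6559 in No279 and 6827 in No364. For every 1000 reads of Col1a1 there were 7.80 to 13.4 reads of Prrx1 in the Cd44+/+ tumors, 7.97 in No203, 37.3 in No279 and 51.4 in No364. By both ratios No279 and No364 were above the other 4 tumors.

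For the 3 genes with the widest range, the genes with the most similar profile over the 6 libraries were ranked by the root mean square difference of log2 CPM centred on each gene's mean. Only 5 of the libraries were independent. The closest to Tbx15 among 16838 genes were Hoxa9 (0.549), Dlx5 (0.557) and Dlx6 (0.565), against a median of 3.487. The closest to Shox2 were Dlx5 (0.146), Hoxa9 (0.228) and Hoxc10 (0.299), against a median of 3.332. Dlx5 and Dlx6 are homeobox genes of bone and the jaw, and Hoxa9 and Hoxc10 are Hox genes of the middle and posterior body and the limb. Between Tbx15 and Shox2 the difference was 0.596.

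Dlx5 was at 34.7 CPM in No244, 43.8 in No316, 45.9 in No368 and 34.5 in No203, but at 0.594 in No279 and 0.105 in No364. Hoxa9 lay between 40.0 and 42.9 CPM in the Cd44+/+ tumors and gave 24.0 CPM in No203, 0.330 in No279 and 0.0523 in No364. Hoxc10 was at 12.0 to 13.6 CPM in the Cd44+/+ tumors, 8.09 in No203, 0.0330 in No279 and 0 in No364. These genes were chosen for their likeness to Tbx15 or Shox2, so their sharing the same split follows from the choice. None was called by edgeR. The closest to Pax9 were the gene model Gm6434 (0.216), the transferrin receptor Tfrc (0.288) and the glutathione peroxidase Gpx7 (0.316), against a median of 1.443. Tfrc was highest in No203 (541.8 CPM) and lowest in No316 and No368 (47.6 and 48.5 CPM).

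Other patterning genes were listed in 6 groups, 73 genes in all, of which 42 passed the low-count filter. edgeR called none of them. At an unadjusted p under 0.05, 2 of the 42 were higher and 2 lower in Cd44-/- tumors, beside 10.7% of all genes tested in either direction. All Cd44-/- tumors were above all Cd44+/+ tumors in 2 of the 42 and below in 8, beside 19.1% of all genes tested that were apart either way and 9.57% that were below. The median log2 fold change of the 42 was -0.50. DESeq2 gave an adjusted p for 37 of the 73 and called 4, beside 2.33% of all its genes. Among the 4 were Lhx2 and Dlx2, higher in Cd44-/- tumors, and Hoxa11, lower. These calls take No316 and No368 as 2 libraries.

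Of the limb field genes, 3 of 9 passed the filter. Tbx2, a T-box repressor that marks the limb margins, lay between 126.4 and 129.8 CPM in the Cd44+/+ tumors. Of the Cd44-/- tumors, No203 had 42.0 CPM, No279 had 3.47 and No364 had 3.14. Its log2 fold change was -2.99 ± 1.08 (SE; unadjusted p = 0.0285, adjusted p = 0.452, edgeR). It showed the same split of tumors as Tbx15. Its sister gene Tbx3 did not, with 1.27 CPM in No203, 2.27 in No244, 15.4 in No316, 17.1 in No368, 22.4 in No364 and 26.8 in No279. Sall1, a zinc finger gene of limb and kidney, had no reads in No316 and No368 and was highest in No364, at 31.4 CPM.

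Of the TALE cofactors, the family of Meis2, all 9 passed the filter. A negative log2 fold change was seen in 6 of the 9, beside 7562 of all 16839 genes tested. Tgif1 had a log2 fold change of -0.13, Pbx2 of -0.63 and Pknox2 of 1.75, and in these 3 the genotypes overlapped.

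Of the limb axis regulators, 5 of 10 passed the filter. The hedgehog effectors Gli1, Gli2 and Gli3 had log2 fold changes of -2.09, -1.16 and -0.59 and adjusted p of 0.504, 0.672 and 0.795 by edgeR. Each was lowest in No364, at 0.628, 0.628 and 3.03 CPM. They were among 26 of the 42 other patterning genes lowest there, beside 4149 of all 16839 genes tested. Lhx2, a LIM homeobox gene of the outgrowing limb, had at most 3 reads in any Cd44+/+ tumor, against 95 in No203, 53 in No279 and 15 in No364 (adjusted p = 0.452 by edgeR and 0.00395 by DESeq2). Zbtb16, a zinc finger gene of the proximal hindlimb, was highest in No364 at 17.8 CPM, and its genotypes overlapped.

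Of the somite and sclerotome regulators, 6 of 12 passed the filter, and the genotypes overlapped in all 6. Foxc1 and Foxc2, forkhead genes of the somite and skull, had log2 fold changes of -0.77 and -1.27. Tbx6 had 19.2 CPM in No244 and 0.495 and 0.628 CPM in No279 and No364. Tbx18 had a log2 fold change of -0.13 and ranged from 0.890 CPM in No364 to 19.2 CPM in No244.

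Of the craniofacial and mesenchymal regulators, 11 of 19 passed the filter. In 3 of the 11, Alx4, Dlx5 and Dlx6, all Cd44-/- tumors were below all Cd44+/+ tumors, beside 9.57% of all genes tested. Alx4, a homeobox gene of skull and limb, ranged from 38.6 to 94.99 CPM over the Cd44+/+ tumors, with 30.2 CPM in No203, 5.68 in No279 and 0.314 in No364. Twist1, which restrains osteoblast maturation, was highest in No279 at 98.6 CPM and lowest in No364 at 7.90 CPM. Its relative Twist2 was at 11.2 CPM in No279 and at most 0.840 CPM elsewhere. Twist1 and Twist2 were thus, like Prrx1, highest in No279. So were 3626 of all 16839 genes tested, and Twist1 and Twist2 were among 8 of the 42 other patterning genes highest there.

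Of the positional Hox genes, 8 of 14 passed the filter. A negative log2 fold change was seen in 7 of the 8, beside 7562 of all 16839 genes tested. The median of the 8 was -1.79. Hoxa10 was at 11.1 to 21.03 CPM in the Cd44+/+ tumors and 16.1 CPM in No203, with 0 reads in No279 and No364. Hoxa11 was at 1.77 to 10.7 CPM in the Cd44+/+ tumors and 0.555 CPM in No203, also with 0 reads in No279 and No364 (log2 fold change -5.24, adjusted p = 0.452 by edgeR and 0.0381 by DESeq2). Hoxc8, which patterns the thorax, did not share this split, with 34.7 CPM in No244 and 16.9 in No279 as its highest levels and 1.26 in No364 as its lowest.

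**Figure D5:**
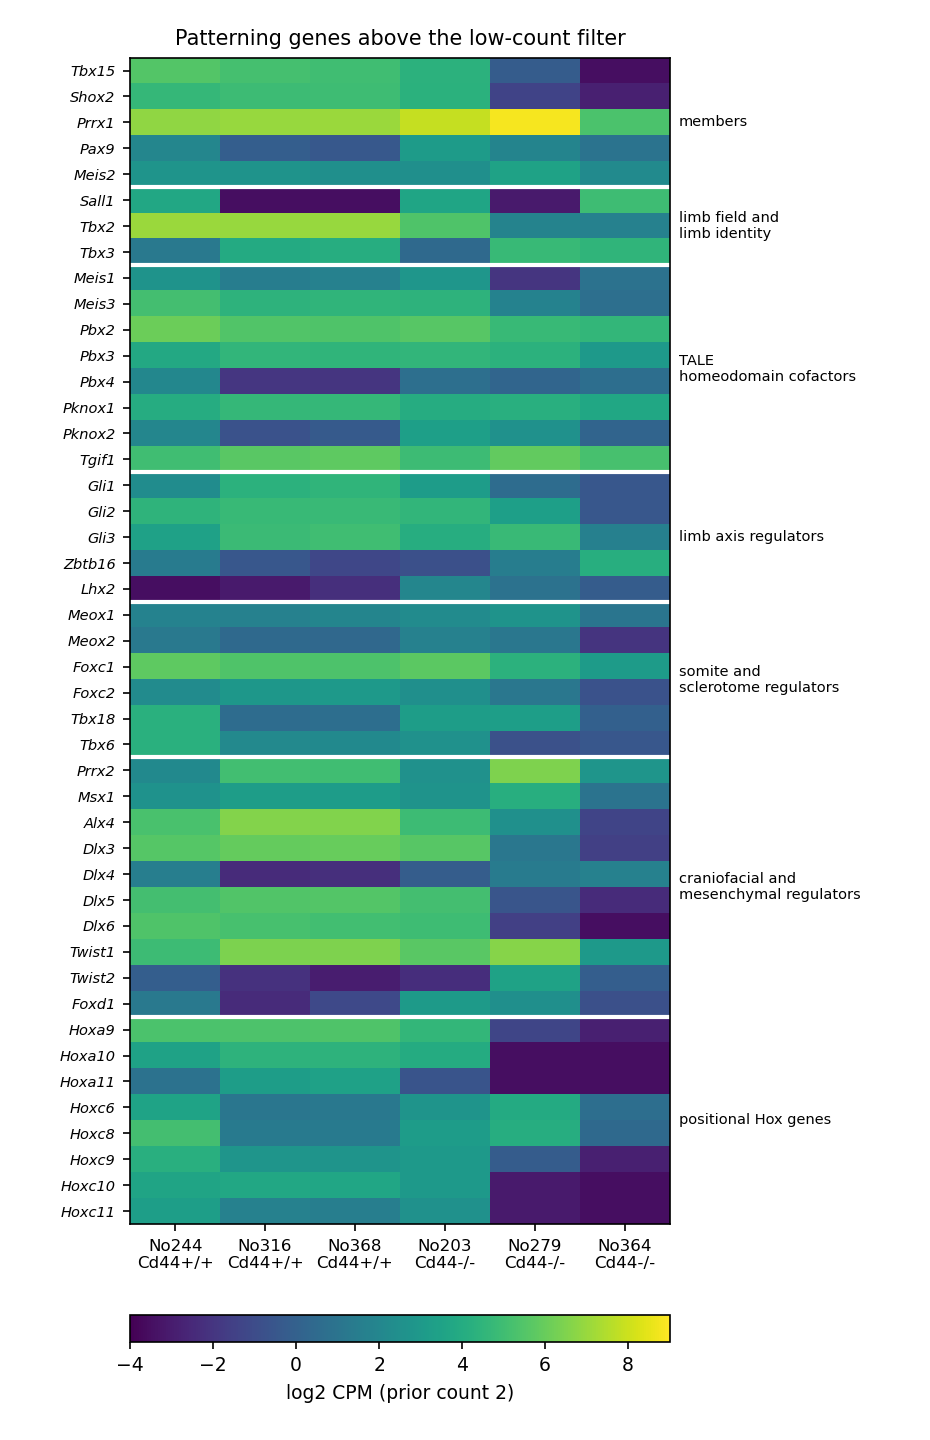
Log2 CPM (prior count 2, colour scale) of the 5 tested members and 40 other patterning genes above the low-count filter, 1 row per gene grouped by list and 1 column per tumor. Tbx15 and Shox2 are dark in No279 and No364, as are Dlx5, Dlx6 and most Hox genes, whereas Prrx1 and Meis2 are not.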

How the data were processed

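For each of 6 osteosarcomas the authors deposited 1 column of raw read counts by Ensembl gene. The study's methods describe stranded mRNA libraries read from one end, and the submitters' processing notes name bcl2fastq 1.8.4, HISAT2 2.0.2, featureCounts (Subread 2.0.0) and GRCm38. The settings for strand and for reads matching several genes are not given in the sources used here. Symbols were found for 37607 of 39179 identifiers in GENCODE M21, another release than the one used for counting (Ensembl 84). Coordinates and exon lengths are from GENCODE M21.

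The quasi-likelihood test of edgeR 4.0.16 (R 4.3.3) was fitted to all 6 libraries by genotype alone, after TMM scaling and filterByExpr, with a call at an adjusted p (Benjamini-Hochberg) under 0.05. Standard errors were taken as the absolute log2 fold change over the root of the F statistic. The Wald test of DESeq2 1.42.0, the tool of the study, and limma-voom (limma 3.58.1) were alternatives. Intervals of levels and ratios are exact 95% Poisson and binomial intervals and cover counting error only. The labels do not state how tumors relate to litters, and p-values measure only the spread between these libraries. Scripts were tested on simulated data. Members and gene lists were chosen with earlier results of these data known. Genes named beside the members and Cd44 were, in each list, the 3 with the highest mean CPM and the 2 with the largest absolute log2 fold change, and the 3 most similar genes to each of 3 members. Dlx2, Sp7, Ibsp, Phex, Runx2 and Col1a1 were named after their values were seen. Some of the genes this rule names are not reported here.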

Additional observations from a re-analysis of the deposited data

How the results depend on the processing

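The number of tested members whose genotypes did not overlap, 2 as reported, was 1 under library size alone. It was 0 when at least 10 counts were required in every tumor (a filter that removes Tbx15 and Shox2). It was 4 in the tumors with reads of at most 1 Y-linked gene, where No203 is the only Cd44-/- tumor. When each tumor was left out in turn it was 2 to 4. It was 4 without No244 (Pitx1, Tbx15, Shox2 and Pax9) and 3 without No364. Sets with fewer tumors also gave more such genes among all genes tested. As reported, 1598 were above and 1611 below of 16839. With No203 as the only Cd44-/- tumor these were 5188 and 4765 of 18302. They were 3541 and 3515 of 17783 without No244, and 2629 and 2395 of 17518 without No364. DESeq2 called 419 genes, where edgeR called 0 (1810 at an unadjusted p under 0.05, and 761 with No316 and No368 summed), and 4 of the other patterning genes, where edgeR called 0. No member was called under any of the 17 alternatives, and the adjusted p of the 5 tested members lay between 0.116 and 1. The log2 fold change of Meis2 was -0.14 in the tumors with reads of at most 1 Y-linked gene and -0.28 without No279. No other member changed sign. Leaving out 1 tumor gave -6.60 to -1.86 for Tbx15, -7.27 to -1.50 for Shox2, 0.14 to 1.46 for Prrx1, 0.62 to 2.64 for Pax9 and -0.28 to 0.47 for Meis2, with the lowest values of Tbx15, Shox2 and Pax9 reached without No203, the highest of Pax9 without No244 and the lowest of Prrx1 without No279. limma-voom gave -5.50 for Tbx15 and -5.12 for Shox2, with unadjusted p of 0.0149 and 0.0121 and adjusted p of 0.507 and 0.502. In limma-voom 1540 of 16839 genes had an unadjusted p under 0.05. Without No203 the unadjusted p was 0.00492 for Tbx15 and 0.000227 for Shox2 (edgeR), where 3085 of 17574 genes were under 0.05. Prrx1 without No364 and Pax9 without No244 were also under 0.05 (unadjusted, edgeR). The cause of the differences between settings was not tested. The osteoblast marker score as a covariate was chosen after seeing the data. Of 120 levels recomputed under library size alone or without mitochondrial genes, 23 moved by more than the SD of the tumor's own genotype. All 23 were in Cd44+/+ tumors. In the 5 tested members the Cd44+/+ SD, over n = 2, was smaller than the Cd44-/- SD (for Prrx1 11.8 against 204.3 CPM). The number moved therefore does not compare how far levels of the genotypes depend on scaling. No paired analysis was possible because the mouse numbers are not shared between genotypes. Pitx1, Tbx4, Tbx5, Pax1 and Msx2 did not pass the low-count filter with all 6 tumors. Pitx1 passed it in some sets that left tumors out, and without No244 its log2 fold change was -3.28 (adjusted p = 0.453, edgeR) and the Cd44-/- tumors were below.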

Other observations

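A pair of genes of the other patterning lists had reads mainly in No203, and was chosen here after its values were seen. Pax3, a paired-box gene of somite and neural crest, had 1788 reads in No203 (70.9 CPM), 1 read in No368 and 0 in the other 4 tumors. En1, a homeobox gene of the ventral limb, was at 10.2 CPM in No203 and at most 0.198 CPM elsewhere. Pax9 was also highest in No203, but it had reads in all 6 tumors. Highest in No203 were 7 of the 42 other patterning genes tested and 2390 of all 16839 genes tested. Pax3 and En1 failed the low-count filter and have no genotype test by edgeR.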
